A study of Mus musculus with 6 samples.

Results

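The genes described here make cholesterol, control its synthesis, move it within the cell and export it, and their transcripts were read in the inguinal white adipose tissue (IWAT) of young mice. They were taken by gene symbol, as 29 of the 55491 genes in the deposited table. The list holds 19 synthesis enzymes, 4 regulators of the transcription factor SREBP2, and 6 genes of intracellular sterol transport and efflux. All 29 were found and had at least 1241 counts on average over the libraries, so none was lost to a filter on low values. IWAT was taken from 4-week-old male mice, 3 Ebf2+/+ and 3 Ebf2 E165X/+, with 1 library of total RNA per mouse. The labels give C57BL/6J as the strain of every mouse and name no treatment. Ebf2 E165X/+ mice carry, next to a normal allele, a knocked-in allele made with CRISPR/Cas9 in which a glutamate codon of Ebf2 is turned into a stop codon. The change is in the germ line, so that every cell of the animal carries it and not the adipocytes alone, and the tissue was read as a whole. By the study's methods, the edited founders came from zygotes of a hybrid strain, B6SJLF1, and were then bred to C57BL/6J. Founder sequence still linked to the edited allele would go with genotype. Ebf2 encodes early B cell factor 2, a transcription factor of adipocyte progenitors and of brown and beige adipocytes. Libraries held between 106820505 and 135039488 counts, and the total did not separate the genotypes (exact permutation test, two-sided, p = 0.9, where 3 mice against 3 cannot give less than 0.1).

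Cells build cholesterol from acetyl-CoA in a long series of steps. The mevalonate arm ends in farnesyl diphosphate, and the sterol arm turns farnesyl diphosphate into squalene, lanosterol, and at last cholesterol. When sterols are scarce in the endoplasmic reticulum, Scap escorts SREBP2 to the Golgi, where it is cut and released to switch on these enzymes. When sterols are plentiful, the Insig proteins hold it back. In the opposite direction, liver X receptors sense oxysterols and switch on the pumps Abca1 and Abcg1, which pass cholesterol to lipoproteins. Adipocytes hold a large store of unesterified cholesterol in and around the lipid droplet.

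SREBP2 binds sterol regulatory elements in promoters, often beside a CCAAT box, the site of the factor NF-Y. RefSeq promoters on GRCm38.p6, from 250 bases before to 50 bases after a start site, were found for 23 of the 29 genes. Letters of a sterol element, TCACNCCA on either strand, stood in 3 of these 23, while 4.97% of the 27025 genes in the promoter table had them. Parts of those 3 promoters are shown because they are the ones with an element. It is in capitals together with any CCAAT box (or ATTGG, its other strand) in the part shown. Each is read 5′ to 3′ along the gene.
Hmgcs1, chr13:119690184-119690251, plus strand: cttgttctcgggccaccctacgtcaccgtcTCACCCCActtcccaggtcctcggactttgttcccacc
Msmo1, chr8:64733730-64733759, minus strand: attcTCACTCCAtccgcgcagCCAATgact
Srebf2, chr15:82147077-82147144, plus strand: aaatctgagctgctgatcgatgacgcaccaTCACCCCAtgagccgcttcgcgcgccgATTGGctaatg
The element began 137 bases before the start of Hmgcs1, 177 before that of Msmo1, and 162 before that of Srebf2. The Msmo1 window is shorter because another annotation, GENCODE M21, places it inside the gene. The promoters of Hmgcs1 and Msmo1 hold further CCAAT boxes outside the parts shown.

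The CCAAT box, a short and common motif, was more frequent. CCAAT, on either strand, stood in 6 of 7 promoters of the mevalonate arm and in 9 of 9 of the sterol arm. Among regulators of SREBP2 it stood in 3 of 4 promoters, and among the 6 transport and efflux genes in 0 of the 3 with a promoter in the table. Of all genes with a promoter in the table, 41.1% had it. These matches describe the letters in a short window and not binding, which was not measured here.

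Ebf2 itself was examined first, as a check of the labels. On the CPM scale, which sets each count against the TMM-scaled size of its library, Ebf2 stood at 38.3, 41.3 and 37.2 in wild-type (Ebf2+/+) animals and at 22.8, 22.9 and 21.1 in E165X/+ animals. The genotypes were far apart, with E165X/+ at 0.571 of the Ebf2+/+ mean. The log2 fold change was −0.81 ± 0.08 (SE, n = 3 mice per genotype), with an adjusted p of 0.0596 in edgeR's quasi-likelihood test and 1.23e-13 in DESeq2. With 1 mouse left out at a time, the log2 fold change stayed between −0.86 and −0.77 and the adjusted p in edgeR ran from 0.0423 (without the third E165X/+ mouse) to 0.369.

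Of the 19 enzymes of cholesterol synthesis, 12 were lower in E165X/+ IWAT at an unadjusted p under 0.05 in edgeR, and after adjustment 0 passed in edgeR and 2 in DESeq2. In 18 of 19 the log2 fold change was below 0, with a median of −0.63 over all 19 and a range from −0.995 (Mvd) to 0.05 (Ggps1). The median over all 32664 genes tested was 0.01, and 47.9% of them were below 0. At an unadjusted p under 0.05 in edgeR, 12 enzymes were lower and 0 were higher, beside 3.09% of all genes lower and 1.68% higher. For 12 enzymes every E165X/+ mouse lay below every Ebf2+/+ mouse and for 0 above, beside 5.75% and 5.09% of all genes. The enzymes are abundantly counted, and among the 10905 genes with a mean of at least 1000 counts 42.9% were below 0, 5.66% were lower and 1.9% higher at an unadjusted p under 0.05, and 7.68% were below and 7.26% above without overlap. None of the 19 passed the adjusted test of edgeR, in which adjusted p ran from 0.617 to 0.875 and which called only 3 genes in all (0.00918% of those tested, adjusted p under 0.05 and fold above 1.5). In DESeq2, where 0.527% of all genes were lower at an adjusted p under 0.05, 2 of the 19 were lower, Acat2 and Fdft1. Genes of this pathway are regulated together, so that the 19 are not 19 independent observations, and in whole tissue fewer cells of a type and less RNA per cell cannot be told apart.

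**Figure D1:**
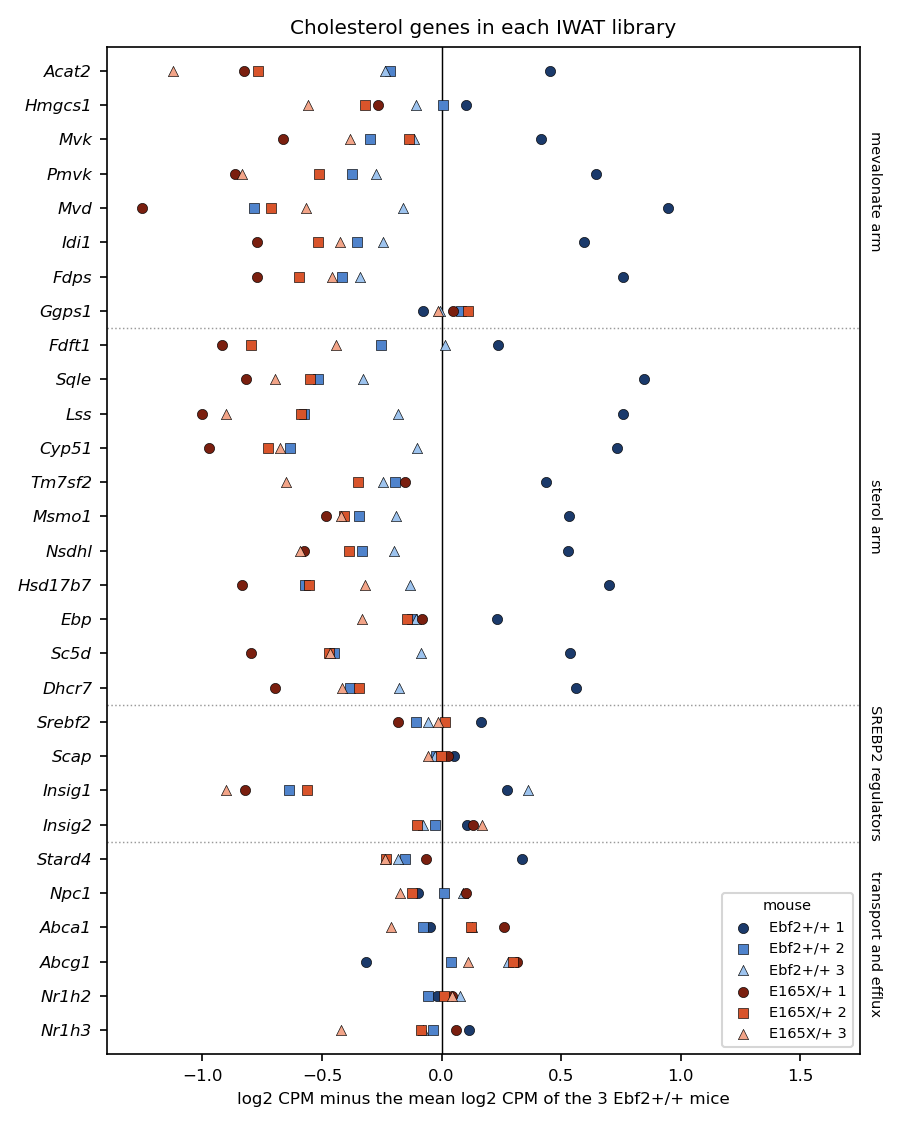
Each point is 1 mouse, placed by its log2 CPM minus the mean log2 CPM of the 3 Ebf2+/+ mice (x axis), for the 29 genes (y axis) in 4 groups divided by dotted lines. The first Ebf2+/+ mouse (dark blue circles) is the highest of 6 for 18 of the 19 enzymes, E165X/+ mice (red shades) lie to the left of 0 for 18, and the transport and efflux genes scatter around 0.

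The mevalonate arm starts with thiolase and synthase steps, and in both the genotypes were separate. Acat2 (ENSMUSG00000023832, chr17:12942890-12960747 on GRCm38, minus strand) encodes the cytosolic acetoacetyl-CoA thiolase. It was read at 175, 110 and 108 CPM in Ebf2+/+ mice, against 72.1, 75.0 and 58.7 CPM in E165X/+ mice. All 3 E165X/+ mice were well below the lowest Ebf2+/+ mouse. The log2 fold change was −0.94 ± 0.20 (SE, n = 3; edgeR unadjusted p = 0.00182, adjusted p = 0.617; DESeq2 adjusted p = 0.000728), and it was −0.69 without the first Ebf2+/+ mouse. Acat2 shares 97.7% identity over 1477 bases with Acat3, which had 2372 counts over all libraries against 71292 for Acat2. It also shares 98.7% identity over 445 bases with Tcp1, a chaperonin gene whose log2 fold change was −0.04 ± 0.10.

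Hmgcs1, the HMG-CoA synthase whose promoter is shown in part above, was read at 308, 288 and 267 CPM in Ebf2+/+ mice. In E165X/+ mice it was read at 239, 230 and 195 CPM. The genotypes did not overlap, and here the first Ebf2+/+ mouse lay close to the other two. The log2 fold change of −0.38 ± 0.11 (SE, n = 3; edgeR unadjusted p = 0.0103, adjusted p = 0.783) was smaller than for most enzymes but less dependent on 1 mouse. It was −0.34 without the first Ebf2+/+ mouse, −0.30 without the third E165X/+ mouse and −0.26 without both.

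The kinases and the decarboxylase that follow showed 1 high Ebf2+/+ mouse. Pmvk, phosphomevalonate kinase, had 73.9, 36.4 and 39.0 CPM in Ebf2+/+ and 25.9, 33.1 and 26.5 CPM in E165X/+ mice, a log2 fold change of −0.81 ± 0.26. Mvd, mevalonate diphosphate decarboxylase, had 35.5, 10.7 and 16.5 CPM against 7.74, 11.2 and 12.4 CPM, a log2 fold change of −0.995 ± 0.41 (SE, n = 3). The Pmvk genotypes were separate, while those of Mvd overlapped: its second Ebf2+/+ mouse lay below 2 of the E165X/+ mice. Without the first Ebf2+/+ mouse the log2 fold change was −0.42 for Pmvk and −0.39 for Mvd. Mvk, mevalonate kinase, also overlapped, and its log2 fold change of −0.41 ± 0.21 had an unadjusted p of 0.0829 in edgeR and was −0.19 without the first Ebf2+/+ mouse.

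Idi1 and Fdps make the activated isoprene units and join them to farnesyl diphosphate. Idi1 was read at 120, 62.3 and 67.1 CPM in Ebf2+/+ mice and at 46.6, 55.5 and 59.2 CPM in E165X/+ mice. Fdps was read at 96.4, 42.7 and 45.0 CPM in Ebf2+/+ mice and at 33.4, 37.8 and 41.4 CPM in E165X/+ mice. Both were without overlap, yet the gap between the lowest Ebf2+/+ and the highest E165X/+ mouse was small. Their log2 fold changes were −0.63 ± 0.24 and −0.71 ± 0.30 (SE, n = 3; edgeR unadjusted p = 0.0346 and 0.0475), and −0.28 and −0.24 without the first Ebf2+/+ mouse. Both have near-identical copies in the genome, of which the most counted held 439 counts against 49210 for Idi1 and 124 against 35542 for Fdps. Ggps1, which diverts farnesyl diphosphate into geranylgeranyl diphosphate for protein prenylation and so leaves the route to sterols, was the 1 enzyme not below 0. It was read at 43.4, 48.5 and 45.7 CPM in Ebf2+/+ and at 47.4, 49.5 and 45.3 CPM in E165X/+ mice, with a log2 fold change of 0.05 and a 95% interval from −0.12 to 0.21.

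The sterol arm opens with Fdft1 (ENSMUSG00000021273, chr14:63145150-63179578, minus strand), squalene synthase, the first step committed to sterols. It was read at 59.1, 42.1 and 50.7 CPM in Ebf2+/+ mice, against 26.5, 28.9 and 37.0 CPM in E165X/+ mice. The genotypes did not overlap, and all 3 Ebf2+/+ mice contributed to the difference. The log2 fold change was −0.72 ± 0.16 (SE, n = 3; edgeR unadjusted p = 0.00228, adjusted p = 0.660; DESeq2 adjusted p = 0.0051), and −0.61 without the first Ebf2+/+ mouse. Exons of Fdft1 share 774 bases with Ctsb on the opposite strand, 18.3% of the exonic length of Fdft1. Ctsb, cathepsin B, had 1066504 counts over all libraries against 29239 for Fdft1 and a log2 fold change of −0.09 ± 0.15. Whether counting used the strand is not given in the sources used here, so reads from that stretch cannot be told apart. The part of founder sequence linked to the edited allele in the values of Fdft1 was not tested.

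Sqle, Lss and Cyp51, which epoxidize squalene, close it to lanosterol, and remove the first methyl group, repeated the pattern of the high first Ebf2+/+ mouse. Sqle was read at 57.1, 22.2 and 25.3 CPM in Ebf2+/+ and at 18.0, 21.7 and 19.6 CPM in E165X/+ mice. Lss was read at 77.6, 30.8 and 40.4 CPM in Ebf2+/+ and at 22.9, 30.6 and 24.6 CPM in E165X/+ mice. Cyp51 was read at 109.3, 42.3 and 61.2 CPM in Ebf2+/+ and at 33.5, 39.7 and 41.1 CPM in E165X/+ mice. None of the 3 overlapped between genotypes, but for Sqle and Lss the closest mice were within 1 CPM of each other. The log2 fold changes were −0.82 ± 0.33, −0.93 ± 0.31 and −0.90 ± 0.31 (SE, n = 3; edgeR unadjusted p = 0.0419, 0.0198 and 0.0208). Without the first Ebf2+/+ mouse they were −0.28, −0.47 and −0.46.

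The 7 later enzymes demethylate, reduce and rearrange the sterol ring, and all were below 0, beside 47.9% of all genes. At an unadjusted p under 0.05 in edgeR 2 were lower, beside 3.09% of all genes. These were Nsdhl, a sterol dehydrogenase (log2 fold change −0.57 ± 0.21, edgeR unadjusted p = 0.0308), and Sc5d, the lathosterol desaturase (−0.63 ± 0.24, edgeR unadjusted p = 0.0303). Sc5d was read at 194, 97.7 and 126 CPM in Ebf2+/+ mice and at 77.0, 96.4 and 96.5 CPM in E165X/+ mice, so the genotypes were separate by little. Msmo1, the methylsterol monooxygenase whose promoter is shown in part above, had a log2 fold change of −0.49 ± 0.21 without overlap (edgeR unadjusted p = 0.0525). Dhcr7, the last reductase, and Hsd17b7 had −0.54 ± 0.24 and −0.65 ± 0.31, with overlap. Tm7sf2 and Ebp had −0.40 ± 0.22 and −0.19 ± 0.12, also with overlap, and 12.1% of the exonic length of Tm7sf2 is shared with Vps51 on the same strand. Without the first Ebf2+/+ mouse the 7 log2 fold changes were closer to 0, between −0.33 (Sc5d) and −0.08 (Ebp), with −0.27 for Nsdhl and −0.18 for Msmo1. Dhcr7, Hsd17b7 and Tm7sf2 were then at −0.21, −0.23 and −0.17.

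Much of the size, though not the direction, rested on 1 mouse. The first Ebf2+/+ mouse was the highest of the 6 for 18 of 19 enzymes, beside 27.5% of genes with a mean of at least 1000 counts. Its CPM was at the median 1.74 times the mean of the other Ebf2+/+ mice, and at most 2.61 times, for Mvd. The 19 enzymes together held 0.156%, 0.0982% and 0.107% of the counts of the 3 Ebf2+/+ libraries and 0.0828%, 0.0924% and 0.0762% of those of the 3 E165X/+ libraries. The other Ebf2+/+ libraries were thus nearer to the E165X/+ libraries than to the first. Without the first Ebf2+/+ mouse, 19 of 19 enzymes were below 0, beside 47.4% of all genes, at a median of −0.28 (0.02 over all genes). In that setting 12 did not overlap, beside 9.14% of all genes. That count could not fall, since leaving out a mouse can only remove overlap. At an unadjusted p under 0.05 in edgeR, 9 enzymes were then lower, beside 2.24% of all genes. Mvd, Fdps and Sc5d were the ones that no longer passed (unadjusted p = 0.175, 0.0542 and 0.0611). Without the first E165X/+ mouse, the lowest of the 6 for 13 enzymes, only 3 were lower at an unadjusted p under 0.05, beside 3.31% of all genes, while the median was −0.54.

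**Figure D2:**
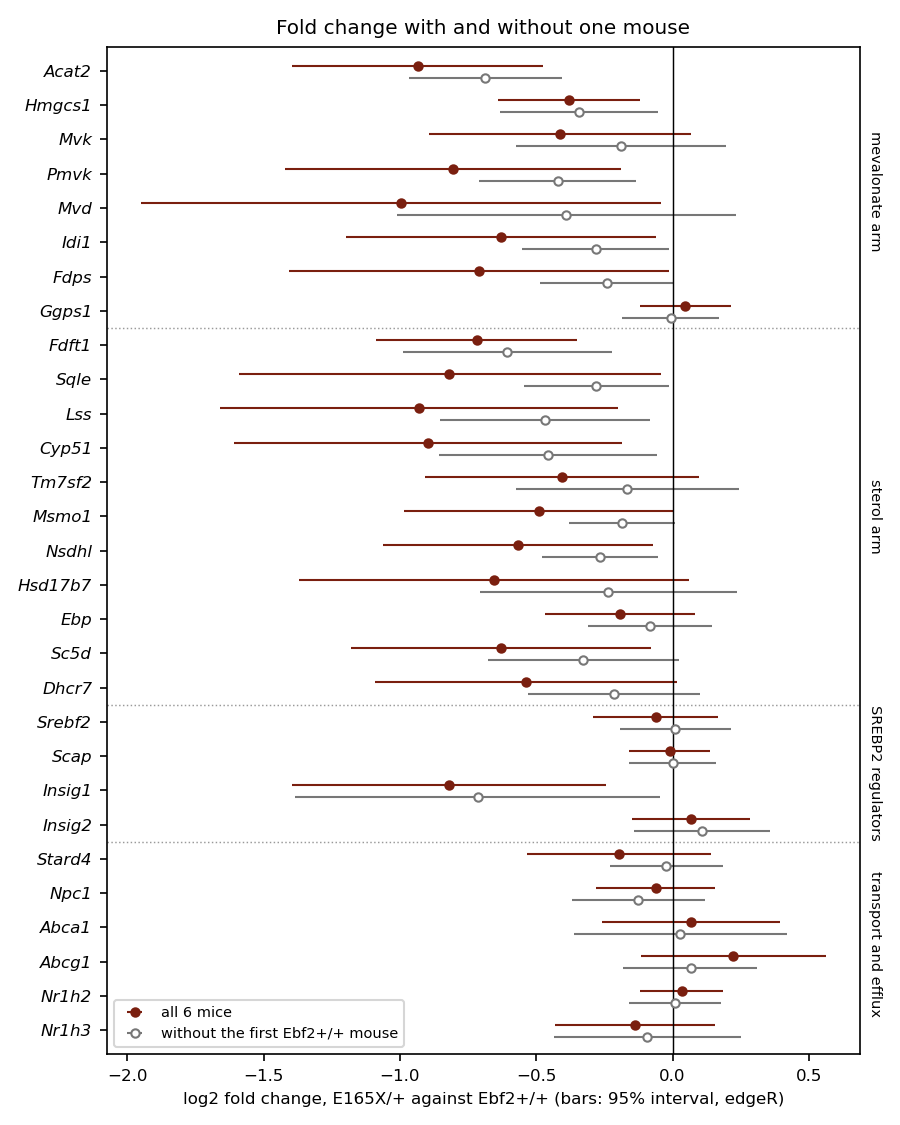
Points are log2 fold changes of E165X/+ against Ebf2+/+ from edgeR for the 29 genes, with bars for the 95% interval, from all 6 mice (filled) and without the first Ebf2+/+ mouse (open). Without that mouse the median of the 19 enzymes moves from −0.63 to −0.28, and that of the 6 transport and efflux genes is −0.01 in both.

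Regulators of SREBP2 did not move as a group. Srebf2, which encodes SREBP2, was read at 111, 92.2 and 95.6 CPM in Ebf2+/+ mice and at 87.6, 100 and 98.3 CPM in E165X/+ mice. The genotypes overlapped, with a log2 fold change of −0.06 and a 95% interval from −0.29 to 0.17. Scap, the escort protein, and Insig2, the second retention protein, had log2 fold changes of −0.01 and 0.07, with 95% intervals from −0.16 to 0.14 and from −0.15 to 0.29. These values are of transcripts and say nothing of how much SREBP2 was cut and active, which was not measured.

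Insig1 (ENSMUSG00000045294, chr5:28071363-28078662, plus strand), the retention protein whose own gene is a known SREBP target, was the exception. It was read at 284, 151 and 302 CPM in Ebf2+/+ mice and at 133, 159 and 126 CPM in E165X/+ mice. Here the first and the third Ebf2+/+ mice were high, and the second lay inside the range of the E165X/+ mice. The log2 fold change was −0.82 ± 0.25 (SE, n = 3; edgeR unadjusted p = 0.0118, adjusted p = 0.783; DESeq2 adjusted p = 0.0413), and −0.72 without the first Ebf2+/+ mouse.

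Genes of sterol transport and efflux had a median log2 fold change of −0.01. In edgeR 0 of 6 had an unadjusted p under 0.05 in either direction, beside 3.09% of all genes lower and 1.68% higher. At those shares a count of 0 among 6 genes says little. None of the 6 was free of overlap between genotypes, beside 5.75% of all genes below and 5.09% above without overlap. Abca1, the pump that loads cholesterol on lipid-poor apolipoprotein, was read at 317, 310 and 357 CPM in Ebf2+/+ mice. In E165X/+ mice it was read at 392, 356 and 283 CPM, on both sides of the Ebf2+/+ values. Its log2 fold change was 0.07, with a 95% interval from −0.26 to 0.39, so that a change of the size seen for Fdft1 in either direction lay outside it.

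Abcg1, the pump that passes cholesterol to mature lipoprotein particles, was read at 43.3, 55.3 and 65.3 CPM in Ebf2+/+ and at 67.0, 66.2 and 58.1 CPM in E165X/+ mice. It had the highest log2 fold change of the 29 genes, 0.22 ± 0.15 (SE, n = 3; edgeR unadjusted p = 0.167), and 0.07 without the first Ebf2+/+ mouse, which was the lowest. The liver X receptors Nr1h3 and Nr1h2 had −0.14 (95% interval −0.43 to 0.16) and 0.03 (−0.12 to 0.18). Npc1, which releases cholesterol from lysosomes and whose exons overlap those of Rmc1 on the opposite strand, had −0.06 (−0.28 to 0.16), and Stard4, a sterol carrier and itself a known SREBP2 target, had −0.20 (−0.53 to 0.14).

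Wider lists of the pathway, 7 in number, were read beside these 29, and 107 of their genes were tested. At an unadjusted p under 0.05 in edgeR 10 were lower and 1 was higher, beside 3.09% and 1.68% of all genes, 0 passed the adjusted test, and the median log2 fold change was −0.04. Of the 10, 5 (Acat1, Por, Acss2, Acly and Aacs) were among the 13 other enzymes of sterol and mevalonate metabolism, where the median was −0.29. Acly and Acss2, which make cytosolic acetyl-CoA from citrate and from acetate, had log2 fold changes of −1.28 ± 0.50 and −1.05 ± 0.37 (edgeR unadjusted p = 0.0377 and 0.0245). Acly was read at 3690, 950 and 1433 CPM in Ebf2+/+ and at 543, 1119 and 846 CPM in E165X/+ mice. The first Ebf2+/+ mouse again stood far above all others, and the genotypes overlapped. Without that mouse the log2 fold change was −0.53 for Acly and −0.45 for Acss2. Aacs, which makes acetoacetyl-CoA for lipid synthesis, Acat1, the mitochondrial thiolase, and Por, the electron donor of Cyp51 and Sqle, had −0.67, −0.40 and −0.29, and Aacs had −0.36 without the first Ebf2+/+ mouse. The first Ebf2+/+ mouse was not apart for Acat1, at 310, 306 and 251 CPM in Ebf2+/+ against 224, 229 and 204 CPM in E165X/+ mice, nor for Por. With 1 mouse left out at a time, the log2 fold change of Por ran from −0.37 to −0.18.

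In the list of SREBP processing, with a median of 0.01 over 16 genes, Srebf1 alone was lower, with a log2 fold change of −0.46 ± 0.19 (edgeR unadjusted p = 0.0470). It was −0.28 without the first Ebf2+/+ mouse. Srebf1 encodes SREBP1, the relative of SREBP2 that drives fatty acid synthesis. Among 20 partners and targets of liver X receptors the median was −0.04, and Scd1 and Lpcat3 were lower. Scd1, stearoyl-CoA desaturase, was read at 19360, 12750 and 14180 CPM in Ebf2+/+ and at 9704, 8830 and 8168 CPM in E165X/+ mice. These genotypes were clearly separate, and the log2 fold change was −0.79 ± 0.29 (edgeR unadjusted p = 0.0262, adjusted p = 0.783; DESeq2 adjusted p = 0.000489). Scd1 is also a known SREBP1 target. Lpcat3, which remodels phospholipids, had −0.37 ± 0.14 (edgeR unadjusted p = 0.0278), and −0.22 without the first Ebf2+/+ mouse.

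In the list of sterol transfer and esters, Tspo, a cholesterol-binding protein of the outer mitochondrial membrane, was lower (−0.36 ± 0.11, edgeR unadjusted p = 0.0135). Soat1, which esterifies cholesterol for storage, was the 1 gene that was higher (0.18 ± 0.07, edgeR unadjusted p = 0.0376), with 35.4, 35.5 and 38.7 CPM in Ebf2+/+ and 43.0, 42.7 and 39.0 CPM in E165X/+ mice. Hsd3b7, of bile acid synthesis, was lower (−0.29 ± 0.09, edgeR unadjusted p = 0.0109). Of 15 genes of the isoprenoid branch, where Nus1 had the most counts, and of 15 of lipoprotein uptake and lysosomal release, led by Cd36, 0 had an unadjusted p under 0.05, and both medians were −0.04. In SREBP processing and in sterol transfer the genes with the most counts were Hsp90b1 and Cav1. Without the first Ebf2+/+ mouse, Acly, Aacs, Por, Srebf1, Scd1 and Soat1 no longer had an unadjusted p under 0.05 in edgeR (0.152, 0.139, 0.071, 0.139, 0.0549 and 0.105).

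**Figure D3:**
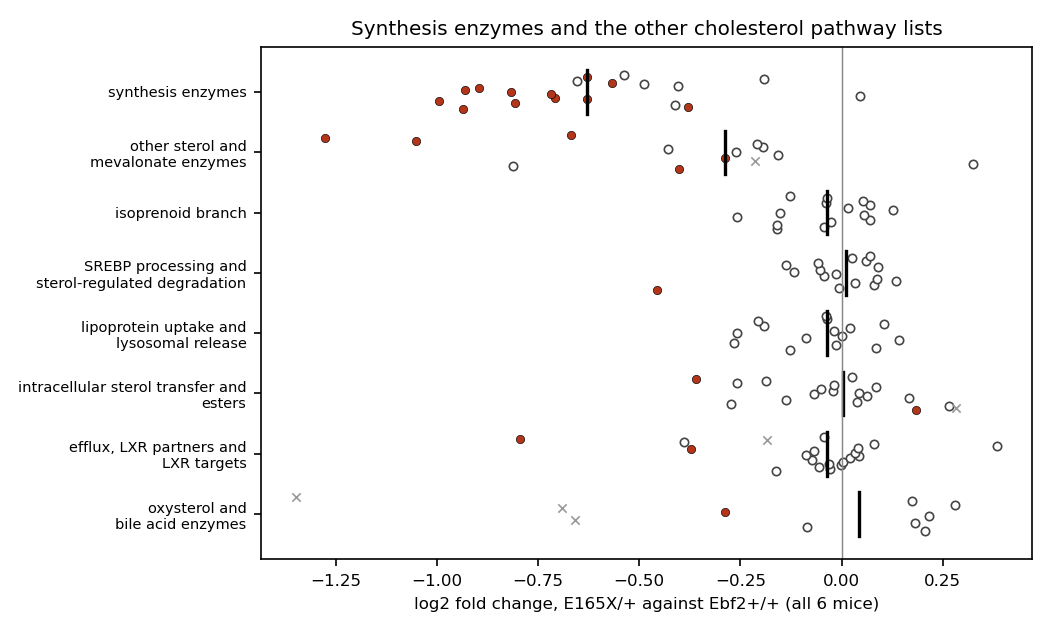
Each point is the log2 fold change of 1 gene (x axis, all 6 mice) for the 19 synthesis enzymes and for the 107 tested genes of the 7 wider lists (y axis). Filled points had an unadjusted p under 0.05 in edgeR, crosses are 6 genes under a mean of 1 CPM, and vertical bars are medians. The medians lie at −0.63 for the synthesis enzymes, −0.29 for the other sterol and mevalonate enzymes, and between −0.04 and 0.04 for the other lists.

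Marker genes of the cell types in the tissue were read in each library, since the composition of IWAT bears on these values. Adipocyte markers, 8 genes of which Cfd had the most counts, held 0.962%, 1.11% and 1.0% of counts in Ebf2+/+ mice. In E165X/+ mice they held 1.09%, 1.16% and 0.676%, and the genotypes overlapped (exact permutation test, p = 0.9). The tissue label thus had its defining markers in every library, and the first Ebf2+/+ mouse, high for the enzymes, was the lowest of its genotype for their sum, though not for every gene of the list. Of the 8, 7 were below 0 in log2 fold change, beside 47.9% of all genes, and 0 had an unadjusted p under 0.05 in edgeR. Some of them lay lower in every E165X/+ mouse than in every Ebf2+/+ mouse, which the sum does not show. Markers of brown or beige adipocytes were lower in sum: all 8 were below 0, and 5 had an unadjusted p under 0.05 in edgeR, beside 3.09% of all genes lower. Together they held 0.0159%, 0.0218% and 0.0215% in Ebf2+/+ and 0.00428%, 0.00493% and 0.00846% in E165X/+ mice. The exact p was 0.1, the smallest the design allows. Cidea, the most counted of them, had 82.4, 102 and 106 CPM against 7.97, 9.61 and 13.2 CPM (log2 fold change −3.24 ± 0.19, edgeR adjusted p = 0.00462). With 1 mouse left out at a time, its log2 fold change stayed between −3.46 and −3.09, and the adjusted p in edgeR ran from 0.000703 to 0.0565. For the sum of this list it was not the first Ebf2+/+ mouse that was the highest, though it was for some of its genes. Others of the list were highest in the third E165X/+ mouse.

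Several lists set a single library apart. Epithelial markers, 8 genes led by Krt10, held 0.0149% of counts in the first Ebf2+/+ mouse, 0.000707% and 0.00635% in the others, and 0.00545%, 0.000715% and 0.00106% in E165X/+ mice. The first Ebf2+/+ mouse was thus the highest for their sum, as for the enzymes, but not for every gene. Krt5, Krt14, Krt1, Krt10 and Cdh1 were also highest in that mouse (50.3, 17.0, 12.4, 65.2 and 7.44 CPM). Epcam was highest in the first E165X/+ mouse (1.98 CPM). Krt8 and Krt18, named after their values were seen, were lowest in the first Ebf2+/+ mouse, at 9 and 11 counts (0.0749 and 0.0916 CPM). They were highest in the third E165X/+ mouse (2.25 and 1.015 CPM). Skeletal muscle markers, 8 genes led by Myh4, held 3.66% in the third E165X/+ mouse and between 0.0701% and 0.672% in the other 5. That mouse was also the lowest for adipocyte markers, above, and for endothelial markers (7 genes led by Pecam1), at 0.0883% against 0.119% to 0.127% in the other 5. Macrophage markers, 10 genes led by Lyz2, held 0.193%, 0.153% and 0.198% against 0.209%, 0.202% and 0.201% (exact p = 0.1). All 10 were above 0 in log2 fold change, beside 47.9% of all genes below 0. None had an unadjusted p under 0.05 in edgeR, beside 3.09% of all genes lower and 1.68% higher. Lymphocyte markers, led by Ms4a1, held 0.0379%, 0.0575% and 0.0601% against 0.0646%, 0.0738% and 0.0600%, with the first Ebf2+/+ mouse the lowest (exact p = 0.2). Lists of progenitors and fibroblasts (Col1a1), endothelium, and cycling cells (Mki67) overlapped between genotypes, with exact p of 0.3, 0.8 and 0.7. No gene of these lists was at 0 counts in any library. The part of these cell types in the values of the enzymes was not tested. The first Ebf2+/+ and the third E165X/+ mouse, with the highest summed epithelial and muscle markers, were left out together, a setting chosen after seeing the data. Then 18 of 19 enzymes were below 0, at a median of −0.31 (−0.28 without the first alone), beside 51.7% of all genes below 0. Of the enzymes, 10 were lower at an unadjusted p under 0.05 in edgeR, beside 3.38% of all genes. The libraries kept still ranged from 0.000707% to 0.00635% for epithelial markers, so this is no test of composition.

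**Figure D4:**
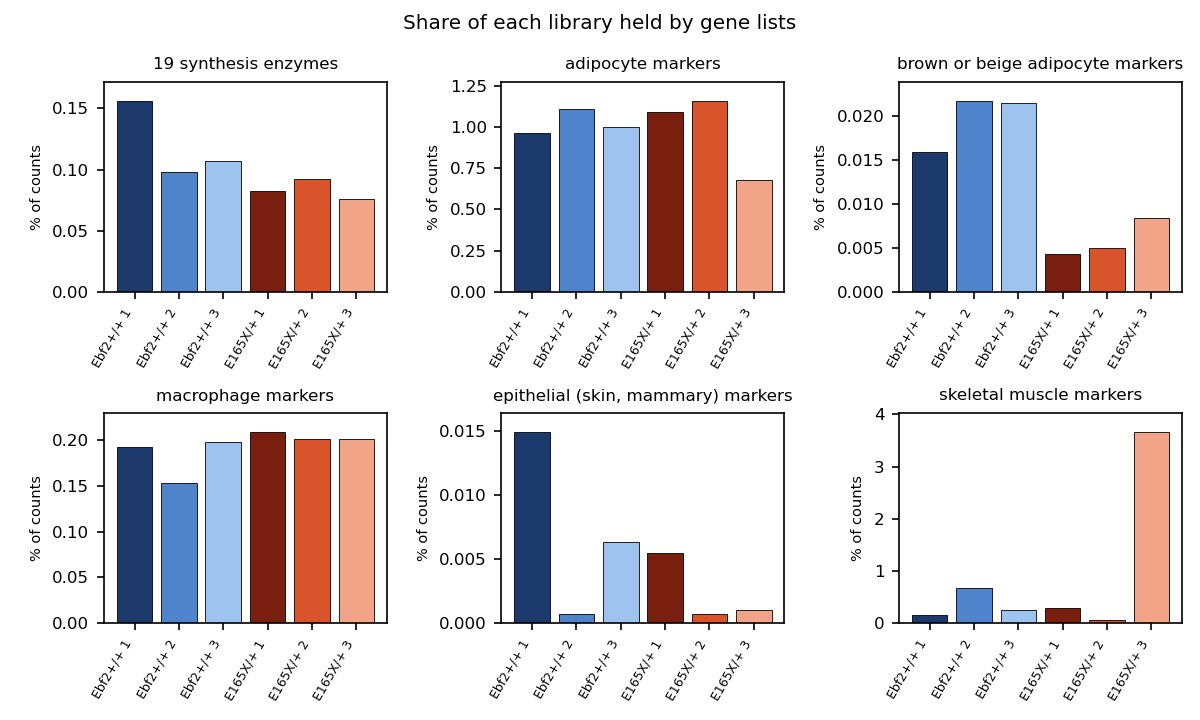
Bars give the percent of each library's counts held by the 19 synthesis enzymes and by 5 lists of marker genes, 1 bar per mouse, Ebf2+/+ in blue and E165X/+ in red, each panel with its own scale from 0. The first Ebf2+/+ mouse is the highest for the enzymes (0.156%) and for epithelial markers (0.0149%), the third E165X/+ mouse for muscle markers (3.66%), and brown or beige markers are lower in all 3 E165X/+ mice.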

How the data were processed

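Bulk RNA-seq of IWAT from 3 Ebf2+/+ and 3 Ebf2 E165X/+ mice was analysed. The authors deposited expected counts per gene from RSEM 1.3.3. The submitters' processing notes also name cutadapt 4.8, FastQC 0.11.8, STAR 2.7.8a, MultiQC 1.20 and GRCm38. The study's methods describe 3′ mRNA libraries, whereas the labels name a kit of another maker, so levels were not compared between genes. Exceptions are the gene with the most counts in a list and the counts of overlapping or copied genes, set beside those of the member. All 332946 values were whole, and rounding changed none.

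The 32664 genes with a count in at least 1 library were fitted in edgeR 4.0.16 (R 4.3.3; TMM, quasi-likelihood test, genotype as the only term), with p-values adjusted by Benjamini-Hochberg over all genes and genes called at an adjusted p under 0.05 with fold above 1.5. Standard errors and 95% intervals come from the fitted dispersions. Counting error was small at this depth, so 3 mice per genotype limit the precision. DESeq2 1.42.0, limma-voom 3.58.1, other scaling and filters, a replicate block and leaving out mice were alternatives. Replicate numbers are those of the labels, and no label says whether the mice were littermates.

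Members and lists were chosen with earlier results of these data known. Named genes are all members, Ebf2, wider-list genes at an unadjusted p under 0.05, the most counted gene of a list, and overlapping or copied genes. Krt8, Krt18 and the other epithelial markers were added after their values were seen. Overlaps used GENCODE M21 and blastn at 95% identity or more over at least 300 bases. The fit was tested on simulated counts, and no outcome of that test is reported or used here. The result of 1 further marker list is not reported here.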

Additional observations from a re-analysis of the deposited data

How the results depend on the processing

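The direction of the enzymes was kept under every alternative run (DESeq2, limma-voom, DESeq2's size factors, both filters, the block, leaving out mice) for 18 of 19 (Ggps1 ranged from −0.0071 to 0.077 with 1 mouse left out). Genes called over the whole table numbered 3 in edgeR, 98 in DESeq2, between 1 and 11 with 1 mouse left out, and 16 without the first Ebf2+/+ and the third E165X/+ mouse, a setting chosen after seeing the data. Enzymes lower at an unadjusted p under 0.05 numbered 12, between 3 and 16 with 1 mouse left out, and their median ranged from −0.84 to −0.28. Deviations of same-numbered mice had correlations of −0.13, 0.09 and −0.45, and those of differently numbered mice ran from −0.772 to 0.785. With 3 mice per genotype these values cannot settle whether the numbers pair mice. With the replicate block 5 enzymes were lower at that threshold, at a median of −0.57. For the block, and for the fit with 16 enzymes lower, the share of all genes lower is not given here. Regulators numbered 1, and 0 without both mice. Transport and efflux genes higher numbered 0, and between 0 and 1 with 1 mouse left out. Genes of the wider lists lower numbered 10 (5 to 13 with 1 mouse left out), and those higher 1, but 0 in DESeq2, limma-voom and the replicate block and 0 to 1 with 1 mouse left out. With 1 mouse left out, log2 fold changes of members close to 0 changed sign: Srebf2 (−0.13 to 0.0093), Scap (−0.047 to 0.012), Abca1 (−0.038 to 0.19) and Nr1h2 (−0.0074 to 0.049). Stard4 (−0.31 to −0.023) and Nr1h3 (−0.25 to −0.013) did not, but without both mice named above they were at 0.0092 and 0.035, and Scap at 0.026. E165X/+ minus Ebf2+/+ shares of counts also changed sign with 1 mouse left out, for adipocyte (−0.143% to 0.0993%), endothelial (−0.0172% to 0.00211%), muscle (−0.181% to 1.61%) and cycling markers (−0.0018% to 0.00344%). The causes were not tested.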
